A study of Homo sapiens with 6 samples.

Results

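The U3 and U1 small RNA gene clusters were examined for METTL14 binding to chromatin in HepG2 cells, a line from a human liver cancer. Their members are the candidate islands, runs of read-rich 200 bp windows, that overlap any of 3 stretches of hg19. The first is chromosome 17 at 18950000 to 19110000, the window of the U3 genes SNORD3A, SNORD3B-1, SNORD3B-2 and SNORD3C. The other two hold U1 genes and U1 variants on chromosome 1, at 16800000 to 17250000 on the short arm and at 147500000 to 149700000 on the long arm. They held 30 of 38696 untreated islands and 30 of 67802 islands of cells given DRB. The windows were selected on untreated IP over input values that earlier work on these data had shown, so the untreated values are a description and carry no test.

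The series holds 6 ChIP-seq libraries. Untreated cells gave 2 IP and 2 input libraries, and cells given 100 µM DRB for 3 h gave 1 of each. Cells of both conditions carried METTL14 from a lentivirus, with an HA tag at its N-terminus and EGFP at its C-terminus, and were selected with puromycin and sorted for high GFP, so the protein is overexpressed and tagged. The HA antibody was used for the IP, and no library of cells without the tag was analysed here. Each condition is 1 deposited table in which libraries are not separate, so no value has an error between replicates, and each range in brackets is an exact 95% interval of counting error alone. The candidate islands held 15339872 IP and 16034656 input reads untreated, and 2411436 and 2726149 with DRB.

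METTL14 is the RNA-binding partner of METTL3 in the enzyme complex that writes N6-methyladenosine on RNA, largely while the RNA is being made. U3 is an abundant box C/D small nucleolar RNA that guides early cleavages of the ribosomal RNA precursor. U1 is the RNA of the splicing particle that recognizes the start of introns, and it also protects transcripts from premature ending. Unlike most small nucleolar RNAs, human U3 is made from short genes of its own, and both U3 and U1 genes are transcribed by RNA polymerase II from promoters of the small nuclear RNA type. DRB inhibits the kinase CDK9 and blocks productive elongation by that polymerase at most protein-coding genes. Its effect on transcription of the U3 and U1 genes was not measured here.

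Both families are multicopy. In the RefSeq gene table of GRCh38.p14, used for names and neighbours only, SNORD3A, SNORD3B-1, SNORD3B-2 and SNORD3C each span 217 bases, SNORD3B-1 lies directly beside SNORD3B-2, and SNORD3A directly beside SNORD3C. RNU1-1, RNU1-2, RNU1-3 and RNU1-4 each span 164 bases. The table holds 144 RNU1 and RNVU1 symbols, of which 43 are on chromosome 1. All 21 that it types as small nuclear RNA genes are among those 43. Between RNU1-1 and RNU1-2 the table lists 35 genes, 8 of them transfer RNA genes and 3 protein-coding. No hg19 annotation was used here, so an island is given by position and is not assigned to a single gene. How reads of 50 nt that match several copies were counted is not given in the sources used here, and its part in the values was not tested.

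METTL14 enrichment in untreated cells was steep at U3 and uneven at U1. Of the 30 untreated islands, 12 were on the authors' significant list (false discovery rate, FDR, under 1e-04), where 5.10% of all untreated candidates were. They were both islands of the U3 window, 3 of 13 in the short-arm U1 window and 7 of 15 in the long-arm U1 window. A fold of at least 2 was reached by 8 of the 30, against 0.328% of all candidates. These shares stand beside a choice made on the same values and support nothing further. The median fold of the 30 was 1.11 (quartiles 0.970 and 2.08), close to the 1.08 of all candidates (quartiles 1.00 and 1.17). The high values therefore belong to a minority of the islands.

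**Figure D1:**
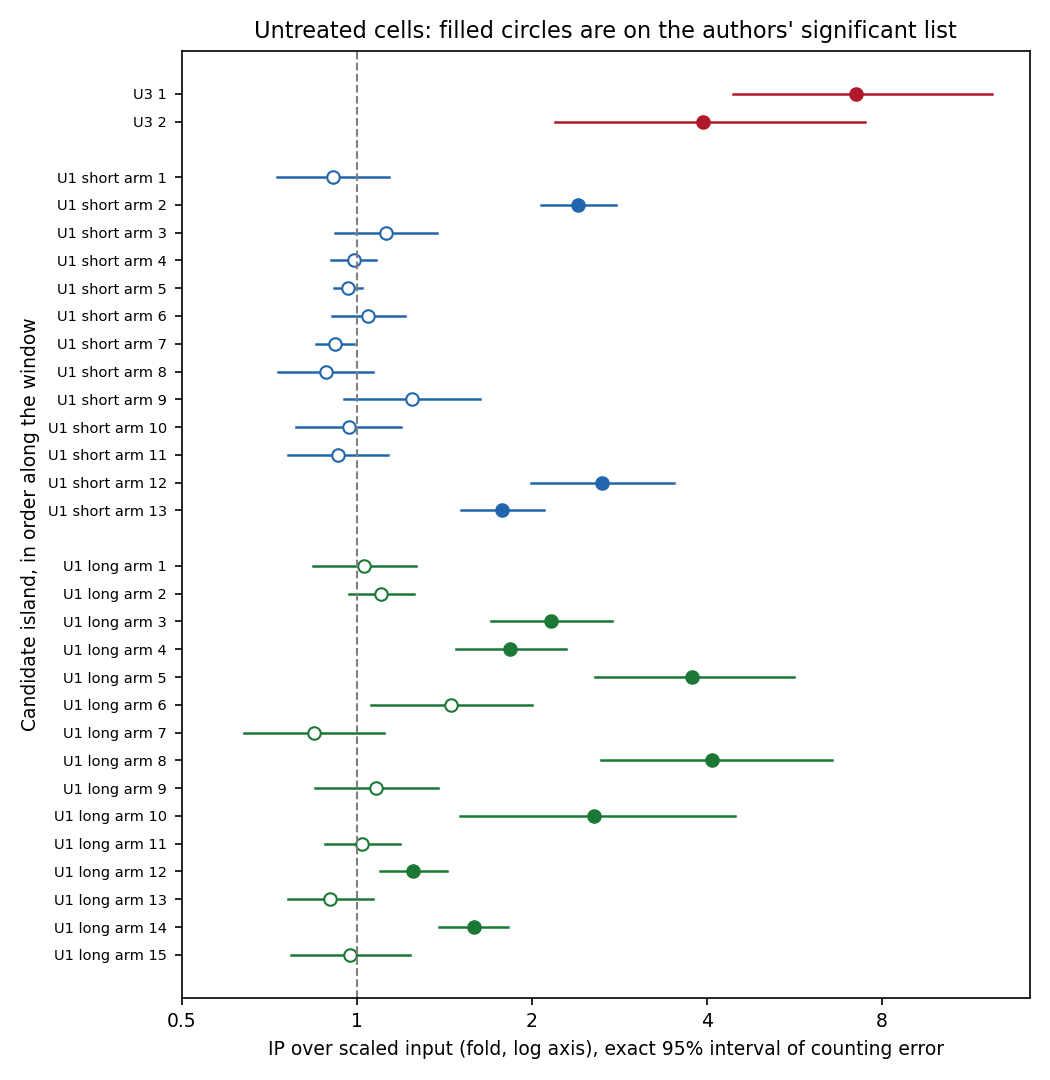
IP over scaled input (fold, log axis) of each untreated candidate island in the U3 window and the 2 U1 windows, in order along each window; bars are exact 95% counting intervals and filled circles are on the authors' significant list. Both U3 islands lie above 3.9. In the U1 windows some high islands are next to each other and others stand among neighbours near 1.

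The U3 window held 2 untreated islands and nothing else across 160 kb. Each was 400 bp wide, the length of a pair of windows. The island on chromosome 17 at 18965401 to 18965800 held 128 reads in the IP and 19 in the input, which gives a fold (IP over scaled input) of 7.23 (4.44 to 12.4). It ranked 1 in fold among the 63 untreated islands of that width and 2 among all 38696. The island at 19091201 to 19091600 had 55 IP and 15 input reads, a fold of 3.93 (2.19 to 7.50), and ranked 3 among those of its width. Their intervals overlap. Summed, the pair gave 183 IP and 34 input reads, a fold of 5.78 (3.99 to 8.59).

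The U3 islands were isolated. They lay 125.4 kb apart, with the nearest other untreated islands 54.2 kb before the first and 148.8 kb after the last. Their input densities were 0.908 and 0.717 times the median of all untreated candidates, whereas the 63 islands of 400 bp had a median input density of 4.40 times it. So the input over U3 was not raised, unlike that of most islands as narrow. The ranks among those 63 islands thus set the U3 pair beside islands of mostly higher input. The IP density was 320.0 reads per kb at the first island, the highest among the 30 members, and 137.5 at the second. In the authors' deposited table the FDR of the pair was 5.73e-62 and 5.05e-15. These come from the same reads on which the window was chosen, so they add no support.

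The short-arm U1 window held 13 untreated islands over 90.6 kb of its 450 kb, and 3 of them were on the authors' list. The island on chromosome 1 at 17222201 to 17223600, 1.4 kb wide, had 177 IP and 72 input reads, a fold of 2.64 (1.99 to 3.52). Near the other end of the window, the 3.6 kb island at 16839201 to 16842800 had 594 IP and 265 input reads, a fold of 2.41 (2.08 to 2.79). The island at 17229401 to 17233000, next to that at 17222201, had 391 IP and 236 input reads, a fold of 1.78 (1.51 to 2.10). The intervals of all of them overlap, that of the island at 17229401 only at its upper end.

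Fold and read excess ranked the islands differently. At 16839201 the IP held 347 reads above the scaled input, the most of any member. The U3 island at 18965401 held 110 such reads, and so did the short-arm island at 17222201. Among the 1412 untreated islands of 3.6 kb, the island at 16839201 ranked 2 in fold and the one at 17229401 ranked 4.

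The other 10 short-arm islands were off the list. The highest fold among them was 1.25 (0.952 to 1.63) at 17004001 to 17006000, with an FDR of 0.0301 in the authors' deposited table. Folds of the 10 ran from 0.884 to 1.25. Summed, their 6205 IP and 6887 input reads showed no enrichment, at 0.967 (0.934 to 1.00). They made up 82.0 kb of the 90.6 kb, including the widest member, 28.2 kb at 16917401 to 16945600, with 2537 IP and 2817 input reads and a fold of 0.966 (0.916 to 1.02). The 18.0 kb island at 16954801 to 16972800 was the only one of the 30 whose interval lay below 1, with 1268 IP and 1482 input reads and a fold of 0.918 (0.851 to 0.990). Over all 13 islands the fold was 1.06 (1.03 to 1.09). That sum is below 1 with other scalings, at 0.983 when the median of all candidates is set to 1. Input density in the window was up to 2.29 times the table's median, in the island at 16885401.

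The long-arm U1 window held the most listed islands of the 3 windows. Its 15 untreated islands spanned 50.4 kb of 2200 kb, and 7 were on the authors' list. The highest were narrow. The 0.8 kb island at 148241401 to 148242200 had 99 IP and 26 input reads, a fold of 4.09 (2.63 to 6.56), the highest of the 78 untreated islands of its width. The 0.8 kb island at 147994001 to 147994800 had 123 IP and 35 input reads, a fold of 3.77 (2.57 to 5.66), and ranked 3 among those 78. Another island of that width, at 148604201 to 148605000, had only 50 IP and 21 input reads, a fold of 2.55 (1.51 to 4.48). The intervals of all these islands overlap, so their order is not resolved.

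Wider islands of the long arm reached smaller folds. The 2.2 kb island at 147735201 to 147737400 had 215 IP and 107 input reads and a fold of 2.16 (1.70 to 2.74). The 2.8 kb island at 147804601 to 147807400 had 233 and 136 reads, a fold of 1.84 (1.48 to 2.29). At 149221601 to 149225400, 3.8 kb, 533 IP and 360 input reads gave 1.59 (1.39 to 1.82). This island held 197 IP reads above the scaled input, the most in the long-arm window. The weakest on the list was also the widest of the 7, 7.6 kb at 148927801 to 148935400, with 476 IP and 408 input reads and a fold of 1.25 (1.09 to 1.43).

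That last island was the untreated member nearest to the list's threshold from inside. In the authors' deposited table the FDR at 148927801 was 2.57e-05. The nearest from outside was the island at 148000601 to 148002200, with 96 IP and 71 input reads and a fold of 1.45 (1.06 to 2.00) and an FDR of 0.00197 in the authors' deposited table, well above 1e-04. It has the higher fold but fewer reads. The 8 long-arm islands off the list had 1751 IP and 1826 input reads in all, a fold of 1.03 (0.963 to 1.10), with values from 0.844 to 1.45. Over all 15 islands the fold was 1.28 (1.22 to 1.34).

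Among the members the higher folds were in the narrower islands, though not every narrow island had one. The lowest fold of any untreated member, 0.844 (0.639 to 1.11), was at the 1.6 kb long-arm island at 148008601 to 148010200. No untreated candidate of up to 800 bp held fewer than 43 IP reads, and none of 400 bp fewer than 50. A 400 bp island with as little input as the U3 pair could therefore enter only with a raised fold. The part of this filter in the trend with width was not tested. All 5 islands of up to 0.8 kb had folds of 2.55 to 7.23, the 18 of 1.4 to 4.6 kb had a median of 1.10 with a highest value of 2.64, and the 7 wider ones had a median of 1.02 with a highest of 1.25. In the whole table the 212 islands of up to 800 bp had a median fold of 1.30, with 33.96% of them on the list. The 63 of 400 bp, the width of the U3 islands, had a median of 1.11, with 19.0% on the list. Those 63 are not a like set for U3. Their median input density was 4.40 times that of all candidates, against 0.908 and 0.717 times at the U3 pair. Chromosome 1 outside both windows had a median fold of 1.11 with 8.69% of its islands on the list, and chromosome 17 outside the U3 window 1.06 with 5.06%.

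**Figure D2:**
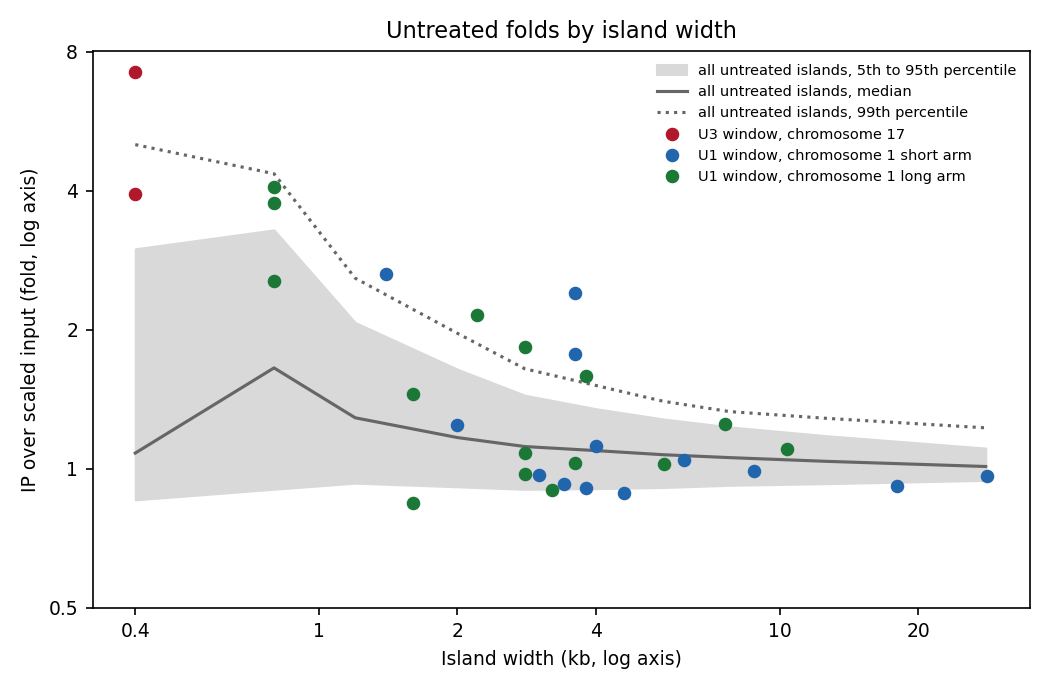
Untreated IP over scaled input against island width (both log axes) for the 30 members, coloured by window, over the median, the 5th to 95th percentile range and the 99th percentile of all untreated islands of like width. The 5 narrowest members, 3 short-arm islands and 3 wider long-arm islands have folds of at least 1.59, while the widest members sit near 1.

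After DRB no island on the authors' significant list lay in any of the 3 windows, where 4.76% of all DRB candidates were listed. With 30 DRB islands in the windows, a count of none is near that share. The U3 window had no DRB candidate island at all. The nearest DRB islands lay 123.0 kb before the first U3 peak and 188.2 kb after the last. The short-arm U1 window had 19 DRB islands and the long-arm window 11, of which 26 of the 30 lay over an untreated island. Input over them was relatively dense, a median of 2.06 times that of all DRB candidates in the short-arm window and 1.12 times in the long-arm window, against 1.24 and 0.930 times untreated. The part of this in the DRB folds was not tested.

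Folds in the DRB islands were modest and rested on few reads. Their median was 1.14 (quartiles 0.924 and 1.55), against 1.51 for all DRB candidates, with medians of 28 IP and 18 input reads. In sum the short-arm islands had 1381 IP and 1276 input reads, a fold of 0.932 (0.863 to 1.01), and the long-arm islands 284 and 194, a fold of 1.26 (1.05 to 1.52). The long-arm sum is below 1 with both other scalings, at 0.837 when the DRB median is set to 1.

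The lowest FDR of a DRB member in the authors' deposited table was 0.000363, at 147822401 to 147823000. That 0.6 kb long-arm island had 15 IP and 4 input reads, a fold of 3.23 (1.03 to 13.4), and lay over no untreated island. An exact two-sided binomial test of the IP share of reads was run on all 67802 DRB candidates with Benjamini-Hochberg adjustment. It called 62 of them at an adjusted p under 0.05 (0.0914%) and none of the 30 members. With so low a share of calls, none among 30 islands says little about these windows. The lowest adjusted p among the members was 0.353. Unadjusted, 3 of the 30 were under 0.05, 1 with more IP than input and 2 with less, against 12.9% of all DRB candidates. No DRB candidate held fewer than 11 IP reads, so one with little input could enter only with a raised IP share. Neither share is therefore a rate to be had without enrichment. The 2 with less were the 9.6 kb island at 16885601 to 16895200, 246 IP and 263 input reads, 0.805 (0.674 to 0.962), and the 8.0 kb island at 16965401 to 16973400, 142 and 170 reads, 0.719 (0.571 to 0.904). This test compares 1 IP library with 1 input library and not the conditions.

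**Figure D3:**
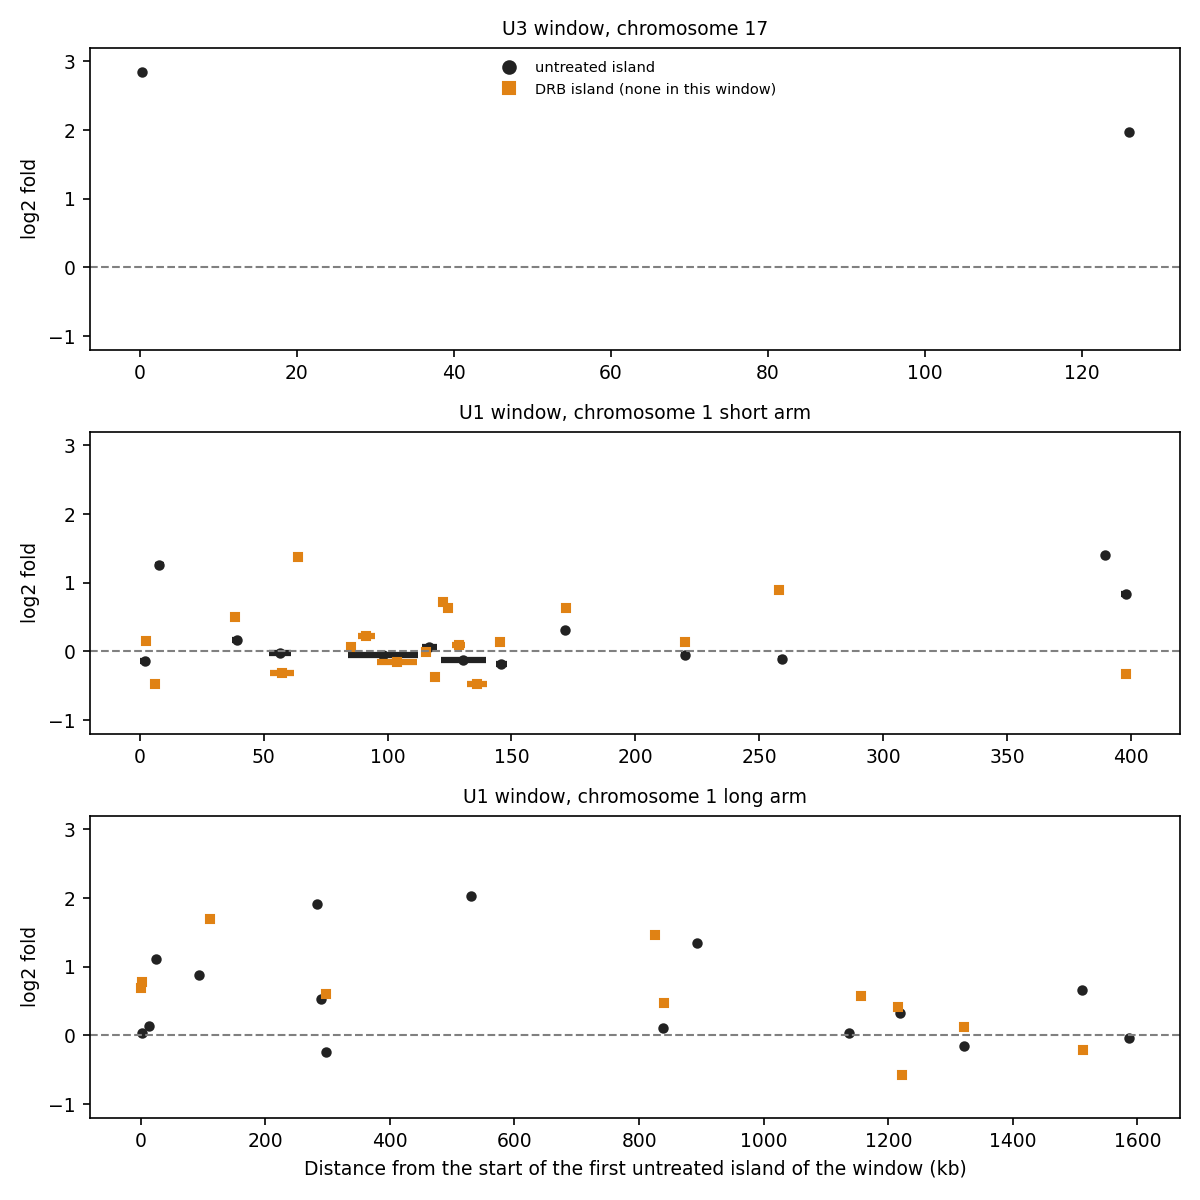
log2 of IP over scaled input (y) for every untreated (black circles) and DRB (orange squares) candidate island, placed by distance in kb from the first untreated island of each window; thick lines show island width where it is wide enough to see. The U3 window has 2 untreated islands and no DRB island, and the short-arm window has 19 DRB islands, mostly where untreated islands lie.

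Most of the enriched untreated islands had no DRB island over them. Of the 12 untreated islands on the list 4 had one, and of the 18 off the list 14 had one; the difference was not tested. Together 18 of 30 had one, where 61.1% of all untreated candidates did and 52.3% of all listed ones. By window the numbers were 0 of 2 at U3, 12 of 13 in the short arm and 6 of 15 in the long arm. All 5 untreated members of up to 0.8 kb were without a DRB island.

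The DRB libraries were shallower, and the part of depth in these gaps was not tested. Over 7547 pairs of islands with a reciprocal overlap of 50% or more, untreated IP reads were a median 5.29 times as dense as DRB IP reads, and input reads 7.43 times. Divided by 5.29, the IP reads of the 8 listed islands with no DRB island come to between 9.45 and 44.1. Every DRB candidate of 400 or 800 bp held at least 12 IP reads. The U3 island at 18965401 comes to 24.2 reads, above that minimum, and the U3 island at 19091201 to 10.4, below it. By this divisor, 6 of the 8 were above the lowest IP count of any DRB candidate of their own width and 2 below. All 4 unlisted islands with no DRB island were above it, that at 147720601 with 91.9 against 86. The divisor comes from pairs that needed a DRB candidate, so it may understate the difference in depth. A missing island is no measured value, and no DRB fold can be given for U3.

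At the 4 listed islands that had DRB islands over them, the DRB fold was lower each time. At 16839201 the DRB island, at 16837401 to 16841000, had 65 IP and 78 input reads, a fold of 0.717 (0.508 to 1.01). That is 0.298 (0.205 to 0.434) times the untreated value, but only 1.8 kb of this 3.6 kb DRB island lies on the untreated one. At 17229401 the DRB island covered 2.0 of the 3.6 kb, with 36 IP and 39 input reads and a fold of 0.794 (0.491 to 1.28), 0.447 (0.268 to 0.745) times the untreated one.

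The long-arm pairs showed the same direction with smaller differences. At 149221601 the DRB island, with 3.2 kb of its 3.8 kb on the untreated one, had 42 IP and 42 input reads, a fold of 0.861 (0.548 to 1.35), which is 0.542 (0.337 to 0.871) times the untreated one. At 148927801, 2 DRB islands covering 1.6 of 7.6 kb had 28 IP and 27 input reads, 0.893-fold (0.507 to 1.57), or 0.713 (0.398 to 1.28) times untreated, so the interval includes 1. These islands were picked out by high untreated values, which favours a lower second value, and the paired islands do not cover the same bases. Among all listed untreated islands with a DRB island, the DRB fold was lower in 61.6%.

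The unlisted members did not share that direction. The DRB fold was lower in 3 of 14, and in 7 of all 18 pairs, where 23.9% of all untreated candidates with a DRB island had a lower DRB fold. The interval of the ratio lay below 1 in 1 of the 14, at 16885401, with 0.815 (0.668 to 0.995), and above 1 in none. A pair needs a DRB candidate, and none held fewer than 11 IP reads, which favours a higher DRB fold. Over all untreated candidates with a DRB island the median fold was 1.29 with DRB and 1.06 untreated. The difference between listed and unlisted members was not tested. The count of lower DRB folds also depends on the baseline. Setting the median fold of all candidates to 1 in each table shifts log2 folds by -0.11 untreated and -0.59 with DRB and multiplies each ratio by 0.716. The DRB fold is then lower in 15 of 18 pairs, 4 of them listed and 11 unlisted, against 68.5% of all untreated candidates with a DRB island. The ratios at the 4 listed islands then run from 0.213 to 0.510.

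**Figure D4:**
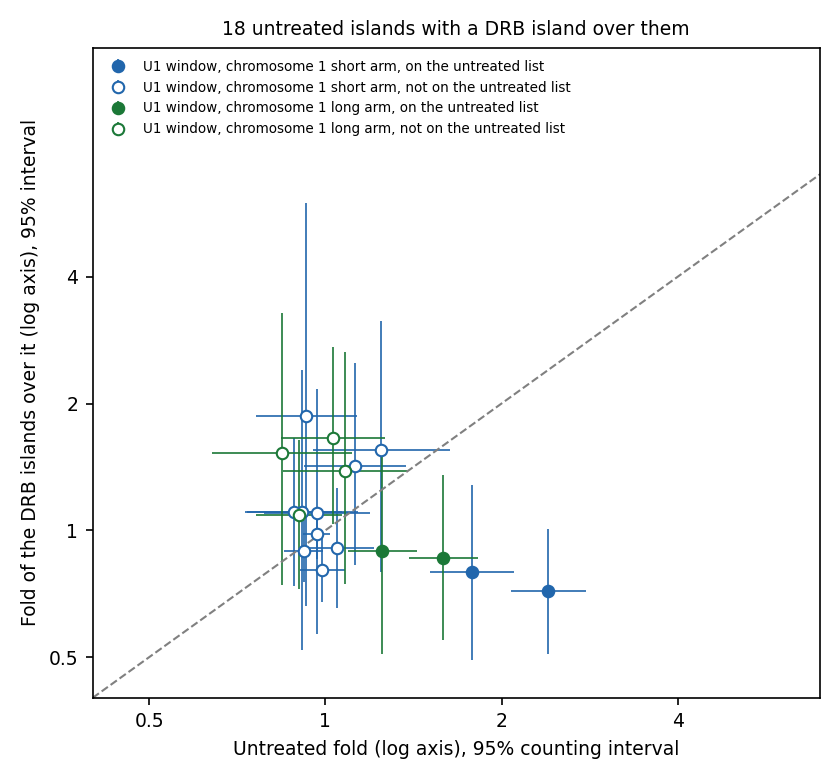
Fold of the DRB islands (y) against fold of the untreated island below them (x), both log axes with exact 95% counting intervals, for the 18 untreated members with a DRB island; the dashed line marks equal folds. The 4 filled points, on the untreated list, lie below the line with DRB folds of 0.717 to 0.893, and open points scatter around DRB folds of 0.805 to 1.86.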

How the data were processed

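Bowtie 1.1.2, FastQC 0.11.5, SICER and the hg19 build were used per the submitters' processing notes; window, gap and duplicate settings, and how the 2 untreated replicates were combined, were not given in the sources used here. The deposited counts are whole numbers of IP and input reads per island, not normalized. The authors' fold, a ratio, is IP over input reads times 1.07 (untreated) or 0.861 (DRB). The deposited p-value and FDR are the authors', and each deposited list, which holds positions only, is the islands with an FDR under 1e-04. The files have no headers, so columns were identified from the values, and each table's condition from its name.

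The windows, named islands and lists were chosen with earlier results of these data known. The rule for named islands took those on the lists, up to 12 per window. It added the 3 highest and 3 lowest folds with at least 10 input reads, the widest, and DRB islands over them. Some of these, among them many of the lowest folds and several DRB islands, are not named singly in the text. Other islands are given by ranges or because a sentence singles them out. Positions are 1-based. Fold intervals are Clopper-Pearson intervals of the IP share. Ratio intervals are exact conditional intervals of 4 read counts. Overlap means at least 1 bp. The binomial test was two-sided. It was tried on simulated binomial counts, with changes placed only in islands of more reads than most DRB members held. That trial had no spread beyond counting error and does not show how the test performs on these members. Reads without molecular identifiers are not independent molecules. Nothing says that replicates came from separate cultures. Alternatives were other scalings, left-out islands, stricter FDR, and overlap rules, with the recentring of paired folds chosen after seeing the data. Values were computed in Python 3.11.15 with SciPy 1.17.1, pandas 2.3.3, numpy 2.4.6 and matplotlib 3.10.9.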

Additional observations from a re-analysis of the deposited data

How the results depend on the processing

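Of 46 alternative values over 14 results, 34 were the same by the rule used, 7 had moved and 5 had reversed direction. Most of the 7 that moved kept their direction. Counts of listed islands and of untreated islands with a DRB island stayed within 1.5 times under every alternative tried, the furthest being 8 in place of 12 short-arm islands and 4 in place of 6 long-arm islands with a DRB island at 50% reciprocal overlap. Pooled folds near 1 followed the scaling. With the median of all candidates set to 1, the short-arm U1 fold turned to 0.983 untreated and was 0.618 with DRB, and the long-arm fold was 1.19 untreated and turned to 0.837 with DRB. Scaling from the summed reads of nuclear islands gave 0.999 and 0.728, and 1.21 and 0.985. The median over islands gave 0.988 (untreated) and 1.10 (DRB) in the short arm. Without its highest island the U3 fold was 3.93, which rests on 1 island. With the DRB median set to 1, the binomial test called 4 DRB members, all short-arm islands with folds below that median, where it called 1.51% of all DRB candidates and 1026 of those 1027 calls were lower too; the count was 0 with the authors' scaling. No paired analysis was possible because the libraries of a condition are not separate in the tables. Leaving out a replicate was not possible for the same reason. Depth limits the DRB values, since the DRB members had a median of 18 input reads.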
